A study of Rattus norvegicus with 6 samples.

Results

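Mitochondrial ribosomal proteins are encoded in the nucleus, made in the cytosol and imported into mitochondria, where they join with ribosomal RNA made from mitochondrial DNA. The ribosome they build, the mitoribosome, has a small subunit that holds and decodes the messenger RNA and a large subunit that forms peptide bonds. It makes only the handful of proteins that mitochondrial DNA encodes, all of them membrane subunits of the respiratory chain and ATP synthase, and it carries many proteins that bacterial ribosomes lack. In the jejunum, the absorptive cells of the villi are rich in mitochondria, which power nutrient uptake. The genes described here are those whose array probe carries a RefSeq accession with a rat symbol that starts with Mrpl or Mrps, with 1 probe per gene, the one of highest mean signal. They are 66 of 13837 named genes on the array, measured by 77 probes, and all 66 were well above background on all 6 arrays. Another 12 protein-coding genes with such symbols (Mrpl28, Mrpl33, Mrpl39, Mrpl43, Mrps6, Mrps7, Mrps10, Mrps28, Mrps21l, Mrpl41l1, Mrpl42l1 and Mrps36l1) had no probe with a matching accession.

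Jejunal RNA of male Sprague-Dawley rats aged 6 weeks and weighing 200 ± 20 g was measured on 1-colour Agilent arrays, 3 labelled control and 3 labelled S3d. The control and S3d rats lived at 25°C with a relative humidity of 60%, and the S3d rats spent 2 h of each of 3 days at 35°C on a platform shaken at 0.1 g. Each sample was a pool of RNA from 3 rats. The labels give 10 rats per group and the methods 6, and with 6 rats a group the 3 pools would have to share animals, so the p-values measure only the spread between these arrays.

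Before scaling, the signal at the 75th percentile lay between 415 and 430 on the control arrays and between 1458 and 1558 on the S3d arrays, and no spot was saturated. The 3 control arrays shared 1 slide and the 3 S3d arrays another, scanned on different dates, so group, slide and scan cannot be told apart. The deposited table of normalized values carries the group labels the other way round: each of its 6 columns matched the scanner file of the other group best (Spearman's rho of at least 0.99999, against 0.941 to 0.948 with the file of its own label). No sample was reassigned. Every difference below is S3d minus control as the scanner files are labelled. The study's own direction follows the table, so it is the opposite one, and nearly all of the transcripts that the study also measured by RT-PCR have the sign of the table too. The sign of every difference below therefore depends on which labels are right, which was not settled here.

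The promoters of the largest rises and falls for which RefSeq gives an entry are shown as context for genes that moved in opposite directions. An entry was found for 54 of the 66 genes, and Mrpl35 and Mrps34, with the largest falls, are named only. Each window holds the 250 bases before the annotated start and the 50 after it, in the rat assembly GRCr8. Capitals mark matches, on either strand, to 4 motifs of factors known to act on nuclear genes for mitochondrial proteins: the NRF1 core GCGCATGCG, the ETS core CCGGAAGT bound by GABPA, the YY1 core AAGATGGCG and the SP1 GC box GGGCGG. Mrpl3 lies on the plus strand at chr8:114548720-114549019, Mrpl40 at chr11:95637501-95637800, Mrps14 at chr13:74962347-74962646 and Mrps11 at chr1:142117014-142117313, all on the plus strand.
Mrpl3: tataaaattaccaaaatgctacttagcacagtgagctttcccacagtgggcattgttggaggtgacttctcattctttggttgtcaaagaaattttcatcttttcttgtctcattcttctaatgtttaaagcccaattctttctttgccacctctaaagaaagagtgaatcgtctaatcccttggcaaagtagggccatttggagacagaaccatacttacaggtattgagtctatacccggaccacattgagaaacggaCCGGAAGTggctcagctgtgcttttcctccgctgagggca
Mrpl40: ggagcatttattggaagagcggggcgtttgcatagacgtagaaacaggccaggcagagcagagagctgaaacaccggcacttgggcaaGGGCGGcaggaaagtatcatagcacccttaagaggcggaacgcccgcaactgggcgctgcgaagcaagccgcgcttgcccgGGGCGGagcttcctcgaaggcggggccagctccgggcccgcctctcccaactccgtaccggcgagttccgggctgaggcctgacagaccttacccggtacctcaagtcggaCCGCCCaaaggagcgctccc
Mrps14: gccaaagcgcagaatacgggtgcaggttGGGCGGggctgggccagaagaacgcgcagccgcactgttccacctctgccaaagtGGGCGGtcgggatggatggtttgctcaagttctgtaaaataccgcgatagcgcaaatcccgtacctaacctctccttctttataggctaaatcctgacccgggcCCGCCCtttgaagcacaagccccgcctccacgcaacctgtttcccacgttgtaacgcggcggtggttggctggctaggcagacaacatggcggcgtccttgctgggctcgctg
Mrps11: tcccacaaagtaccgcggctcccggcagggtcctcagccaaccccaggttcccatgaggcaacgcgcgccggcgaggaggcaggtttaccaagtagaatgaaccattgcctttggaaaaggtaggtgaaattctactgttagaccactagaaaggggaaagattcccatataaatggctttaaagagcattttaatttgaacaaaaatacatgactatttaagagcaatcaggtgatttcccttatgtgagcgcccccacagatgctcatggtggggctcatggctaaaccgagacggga
In the Mrpl3 window the capitals are 1 ETS core, which lies within the 50 bases after the start. The Mrpl40 and Mrps14 windows hold 3 GC boxes each, and the Mrps11 window holds none of the 4 motifs.

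Over the 54 promoters, the YY1 core was present in 14.8%, against 1.93% of all 27457 rat promoters in the RefSeq table and 291 of the 9388 promoters of named genes tested. Its 8 carriers were Mrpl36, Mrpl37, Mrpl42, Mrpl46, Mrpl50, Mrps18a, Mrps27 and Mrps30. The ETS core was present in 14.8% of member promoters, against 4.01% of all promoters and 7.42% of those tested, and the NRF1 core in 9.26%, against 1.66% and 2.81%. The GC box, a short and common motif, was present in 51.9%, against 34.9% of all promoters and 56.2% of those tested. Of 9 genes called higher with an entry, 1 held the ETS core, 1 the YY1 core, 0 the NRF1 core and 3 (33.3%) the GC box. Of 35 called lower, 6 held the ETS core, 5 the YY1 core, 2 the NRF1 core and 21 (60.0%) the GC box. These are matches of letters in 1 window per gene, without a test.

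Mitoribosomal genes moved in both directions. A level is a log2 processed signal from which the 75th percentile of its array was subtracted, and a gene was called where limma gave an adjusted p under 0.05 over all 31367 probes tested. Of the 66 genes, 54 were called (81.8%), which has to be read against 74.0% of all probes tested. Of them 12 were higher on the S3d arrays (18.2%), against 39.5% of all probes, and 42 were lower (63.6%), against 34.5%. With a fold change of at least 1.5 as well, 8 were higher and 24 lower, where 29.2% and 23.3% of all probes, or 52.5% in both directions, passed. Control and S3d arrays were fully apart for 58 of the 66, against 78.9% of all probes.

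**Figure D1:**
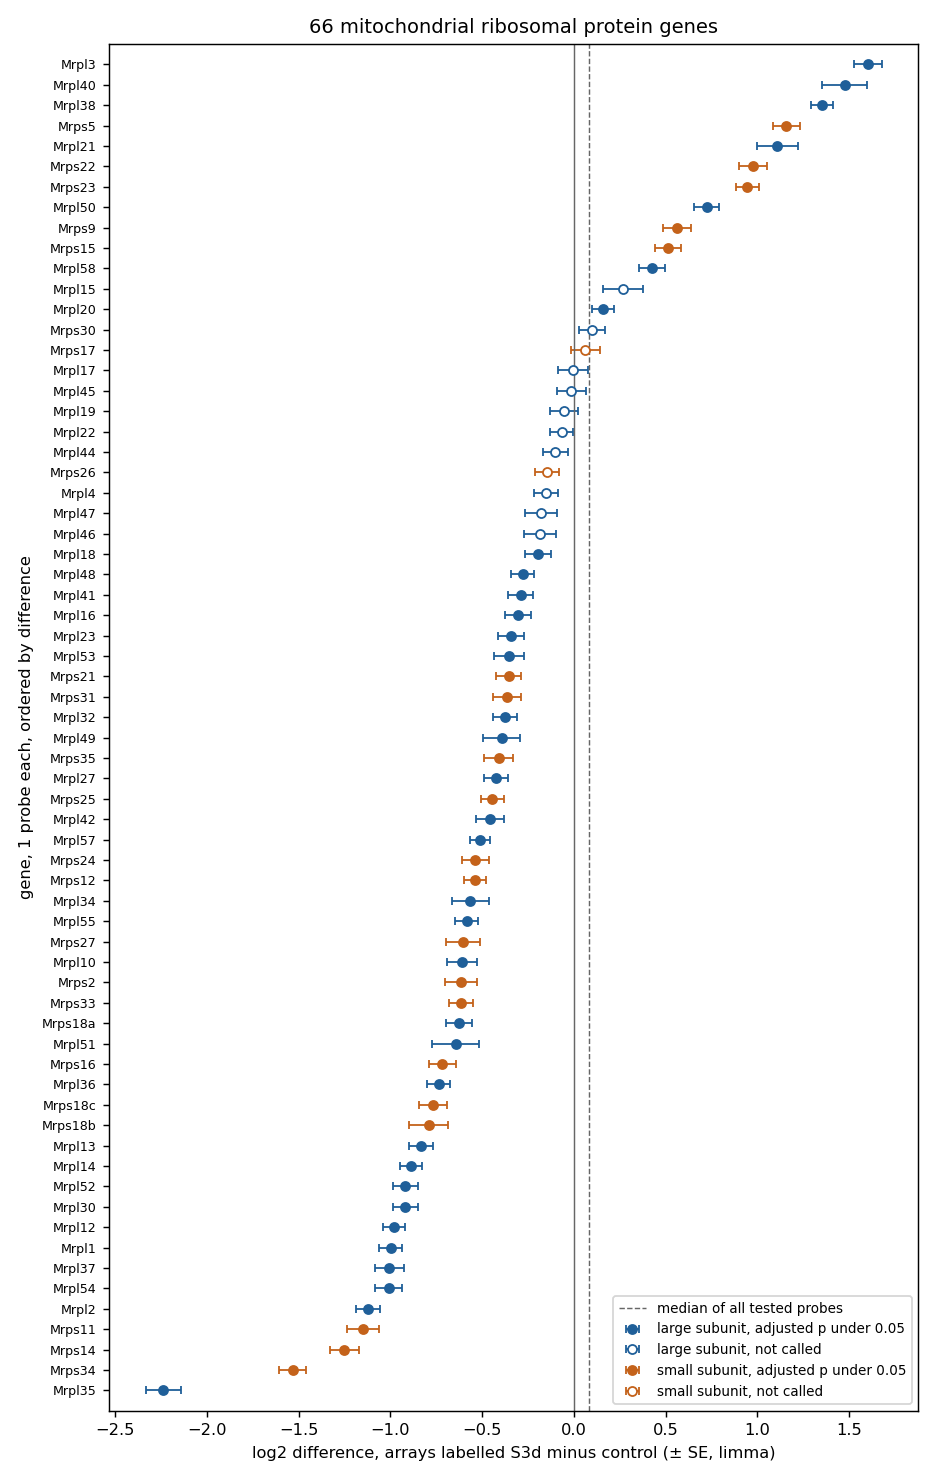
Log2 difference (x axis, arrays labelled S3d minus control, ± SE from limma) of each of the 66 mitochondrial ribosomal protein genes, ordered by value on the y axis. Colours give the subunit, filled points were called at an adjusted p under 0.05, and the dashed line is the median of all tested probes (0.08). Values run from -2.24 for Mrpl35 to 1.60 for Mrpl3, and genes of both subunits lie on either side of 0; without scaling between arrays the values of 65 genes lie above 0.

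The differences ranged from -2.24 to 1.60 with a median of -0.38, while the median over all tested probes was 0.08. The spread of the 66 differences (SD 0.72) exceeded the spread between replicate arrays, whose SD for a typical gene was 0.06 among control arrays and 0.07 among S3d arrays. Across all tested probes the differences had an SD of 1.16. The median level of the 66 genes was 3.24, 3.14 and 3.18 on control arrays 1 to 3 and 3.04, 2.94 and 3.03 on S3d arrays 1 to 3, so the 2 groups were apart in this median as well. In bulk tissue, fewer cells of a type and less RNA per cell cannot be told apart.

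How far the family as a whole was lower, and in which direction single genes moved, depended on the scaling and the background correction. Relative to the median of all tested probes, the median of the 66 genes was -0.47 with the 75th percentile, with median centring and without scaling, but -0.06 after quantile normalization and 0.16, in the other direction, after normexp background correction with high local backgrounds replaced. With normexp as first planned, in which 8 spots of control array 3 had a very high local background, it was 0.80, also in the other direction, and 4 genes were called higher and 0 lower. After quantile normalization 43 of the 66 genes were called, 16 higher and 27 lower, so that 37.2% of the calls were higher in place of 22.2%. Over all probes 70.6% were then called, 35.0% higher and 35.6% lower. Of the genes called with the 75th percentile, 11 of 12 higher ones and 27 of 42 lower ones kept their direction and their call. They did so after each of quantile normalization, median centring and normexp with high local backgrounds replaced. Without scaling, all 66 were called and 65 were higher, among them 53 of the 54 genes called with the 75th percentile. Of all 31367 probes, 29539 were then higher. On 6 external spike-in probes the unscaled signal of the S3d arrays was lower, by a median log2 difference of -0.57 (range -0.85 to -0.32), whereas the 75th percentile was 1.85 higher.

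**Figure D2:**
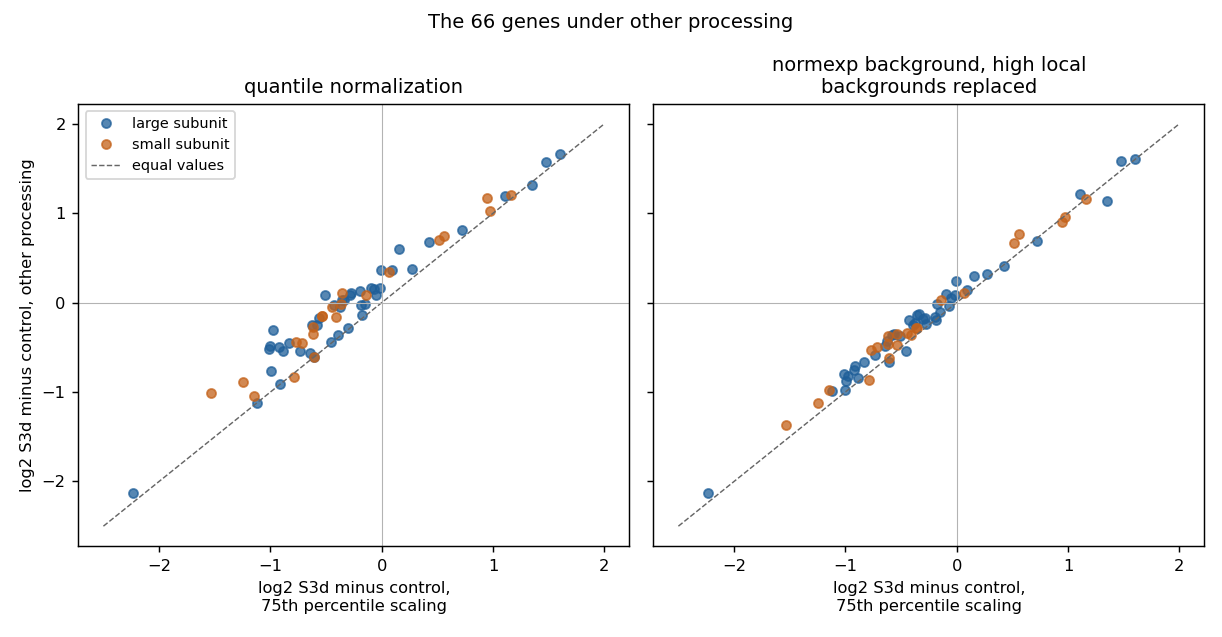
Log2 difference (arrays labelled S3d minus control) of the 66 genes with 75th percentile scaling (x axis) against quantile normalization (left) and against normexp background correction with high local backgrounds replaced (right). Points are genes, coloured by subunit, and the dashed line marks equal values. On the left most points lie above the line, and a few, among them Mrpl2 and Mrpl10, lie on it; the median moves from -0.38 to -0.05.

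The median shift varied with the brightness of the probes. Mitoribosomal probes were bright, with a median log2 signal of 12.75 against 7.85 for all tested probes, and bright probes were lower on the S3d arrays across the whole array. Among all probes the median difference was 0.25 below a log2 signal of 10, -0.09 from 10 to 12, -0.29 from 12 to 14 and -0.67 from 14 upwards. The mitoribosomal medians in the same classes were -0.61 (6 genes), -0.15 (17 genes), -0.37 (29 genes) and -0.53 (14 genes). In the 3 upper classes, which hold most of the genes, the mitoribosomal median differed from that of all probes by -0.06, -0.08 and 0.14, and in the lowest class by -0.86.

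**Figure D3:**
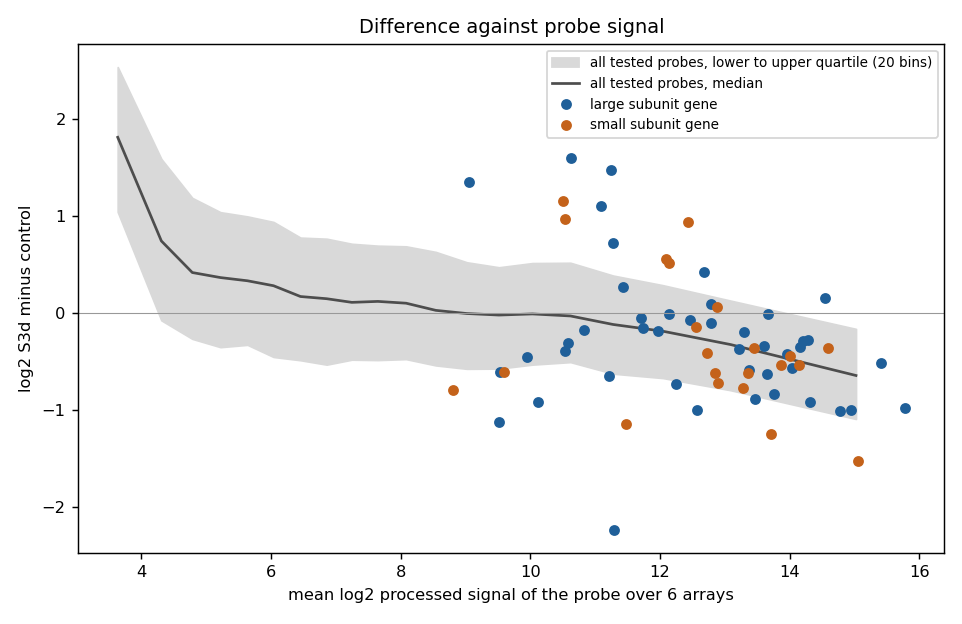
Log2 difference (y axis, arrays labelled S3d minus control) against the mean log2 processed signal of the probe over 6 arrays (x axis). The grey band and line give the quartiles and median of all tested probes in 20 bins of signal, and points are mitoribosomal genes. The line falls from 1.82 in the dimmest bin to -0.64 in the brightest, and most mitoribosomal points lie around its right part.

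The largest rises were in the large subunit. Mrpl3, the counterpart of a bacterial protein that reaches towards the catalytic centre, was at 0.22, 0.19 and 0.12 on control arrays 1 to 3 and at 1.67, 1.80 and 1.86 on S3d arrays 1 to 3. Every S3d array lay above every control array, and the difference was 1.60 (SE 0.08, 3.04-fold, adjusted p = 1.95e-05, limma). Mrpl40, a mitochondria-specific protein of the central protuberance, the crest of the large subunit that faces the small one, was at 0.81, 0.88 and 0.88 and at 2.34, 2.56 and 2.10. Its 3 S3d arrays scattered more (SD 0.23) than those of the other genes named here, and it rose by 1.48 (SE 0.12, adjusted p = 0.000114). A second, dimmer Mrpl40 probe rose by 0.57. Mrpl38, its neighbour in the central protuberance, went from -1.26, -1.31 and -1.27 to 0.09, 0.01 and 0.11, a rise of 1.35 (SE 0.06, adjusted p = 1.73e-05). Mrpl21, which has a bacterial counterpart, rose from 0.89 ± 0.18 (SD, n = 3) to 2.00 ± 0.09, and its control arrays were the least uniform of the rising genes. Mrpl50, specific to mitochondria, rose by 0.72 (SE 0.07).

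In the small subunit, the rises were led by Mrps5, which lies beside the channel through which messenger RNA enters. Its values were 0.34, 0.26 and 0.20 on the control arrays and 1.33, 1.47 and 1.47 on the S3d arrays, a rise of 1.16 (SE 0.07, adjusted p = 4.37e-05, limma). The mitochondria-specific Mrps22 and Mrps23 rose by 0.98 (SE 0.08) and 0.94 (SE 0.06). Mrps9 and Mrps15, both with bacterial counterparts, rose by 0.56 (SE 0.08) and 0.51 (SE 0.07), under the fold threshold. The rises named were chosen among genes called without overlap between the groups, and 78.9% of all probes had no overlap. All were also called after quantile normalization, with differences of 1.66 for Mrpl3, 1.58 for Mrpl40, 1.32 for Mrpl38, 1.21 for Mrps5 and 1.19 for Mrpl21.

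The largest fall was that of Mrpl35, a large subunit protein with a bacterial counterpart. Its signal was 2.87, 2.76 and 2.62 on control arrays 1 to 3 and 0.53, 0.40 and 0.62 on S3d arrays 1 to 3. The gap between the groups was far wider than the scatter within them, and the difference was -2.24 (SE 0.10, 4.71-fold lower, adjusted p = 1.58e-05, limma). Its second probe fell by 0.92. After quantile normalization the difference of the brighter probe was -2.13. Without scaling it was -0.39, and Mrpl35 was the 1 mitoribosomal gene that was still lower there.

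Mrps34, a mitochondria-specific protein required for a stable small subunit, was at 6.25, 6.12 and 6.14 on the control arrays and at 4.67, 4.55 and 4.70 on the S3d arrays. It fell by 1.53 (SE 0.07, adjusted p = 2.09e-05, limma), and by 1.01 after quantile normalization. Mrps11, which lines the path of the messenger RNA, went from 2.54, 2.32 and 2.33 to 1.30, 1.18 and 1.25, a difference of -1.15 (SE 0.09). Mrpl2, one of the proteins around the catalytic centre, went from 0.47, 0.41 and 0.40 to -0.74, -0.73 and -0.62. It fell by 1.12 under both scalings. Mrpl54, Mrpl37, Mrpl1 and Mrpl30 fell by 1.01, 1.01, 1.00 and 0.92 with the 75th percentile, and their quantile differences were -0.52, -0.49, -0.77 and -0.50.

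Mrps14, with a bacterial counterpart, was the one large fall whose probes disagreed. Its brightest probe was at 4.78, 4.67 and 4.61 on the control arrays and at 3.50, 3.36 and 3.44 on the S3d arrays, a difference of -1.25 (SE 0.08, adjusted p = 3.85e-05, limma). A second probe for the same accession rose by 0.78 and was called, another had a difference of 0.21 and was not called, and the mean over all 3 was -0.09 and not called. Of the 10 genes with more than 1 probe, 7 had probes of the same sign and 3 (Mrps14, Mrpl17 and Mrps27) did not. Sizes differed too: the probes of Mrpl55 fell by 0.59 and 1.84, and those of Mrpl57 by 0.51 and 1.20. RefSeq lists 1 or more pseudogenes for 21 of the 66 genes, among them 9 for Mrpl30, 2 each for Mrpl40 and Mrpl1, and 1 each for Mrps11, Mrpl2, Mrpl54 and Mrpl37. Whether a probe also captured a near-identical copy was not tested.

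**Figure D4:**
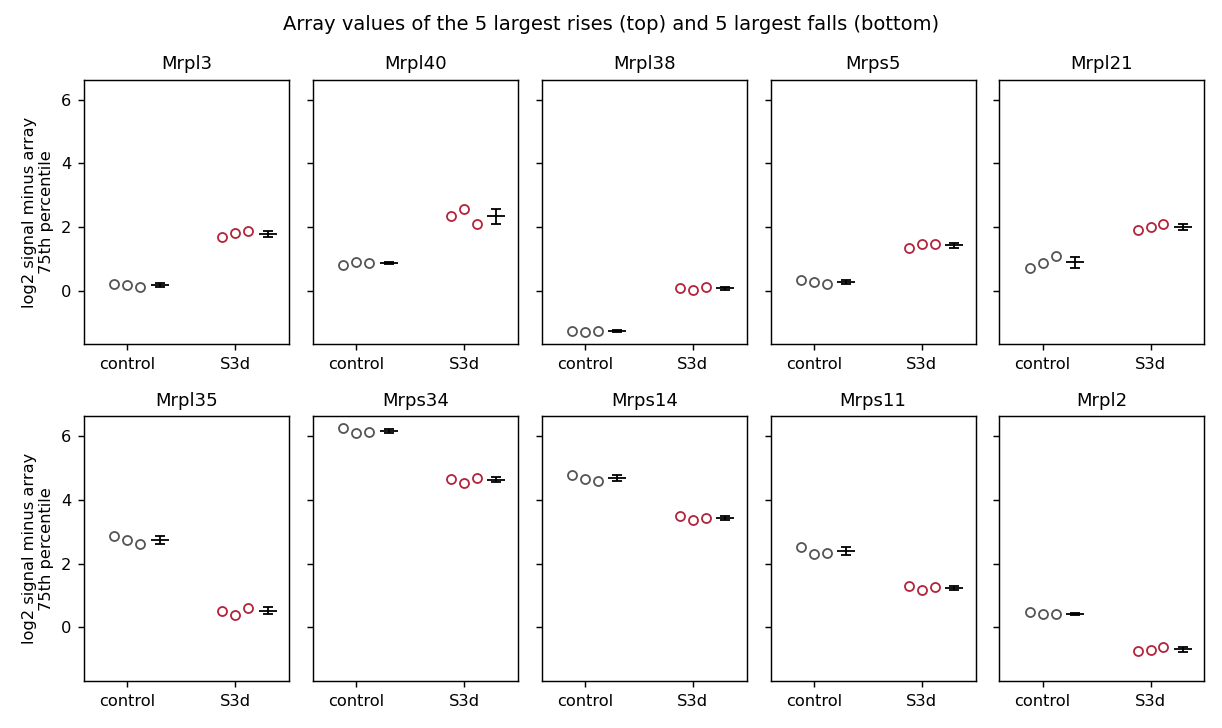
Signal on each array (y axis, log2 signal after subtraction of the array's 75th percentile) of the 5 genes with the largest rises and the 5 with the largest falls, with the 3 arrays of each labelled group as open points and the mean ± SD as black bars. In none of the 10 panels do the groups overlap, because these genes were chosen among those without overlap. Of all probes, 78.9% had no overlap. The Mrps14 panel is its brightest probe, and a second probe rose by 0.78.

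Both subunits held rises and falls. In the large subunit 7 of 44 genes were called higher and 27 lower, with a median of -0.35, and in the small subunit 5 of 22 were higher and 15 lower, with a median of -0.49. Genes with a bacterial counterpart (6 of 39 higher, 26 lower, median -0.54) and mitochondria-specific ones (6 of 27 higher, 16 lower, median -0.35) also included both directions. Over all probes 39.5% were higher and 34.5% lower. The subgroup counts were not tested against each other, and after quantile normalization the same medians were -0.03, -0.15, -0.15 and 0.03.

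All 4 measured proteins of the stalk, the arm that recruits translation factors, were lower, where 34.5% of all probes were. Mrpl12, Mrpl54 and Mrpl53 had log2 signals of 15.78, 14.77 and 14.15, and the median of all probes from 14 upwards was -0.67. Mrpl10 had a log2 signal of 9.53, and the median of all probes below 10 was 0.25. Mrpl12 fell by 0.98 (SE 0.06), Mrpl54 by 1.01, Mrpl10 by 0.61 and Mrpl53 by 0.35. Mrpl12, the factor-binding protein of the stalk, was at 6.63, 6.62 and 6.61 on the control arrays and at 5.68, 5.58 and 5.66 on the S3d arrays. Its quantile difference was -0.31, against -0.61 for Mrpl10 and 0.03 for Mrpl53. At the polypeptide exit tunnel, only Mrpl23 of 5 genes measured was called (-0.34), while Mrpl47, Mrpl22, Mrpl45 and Mrpl17 had differences of -0.18, -0.07, -0.01 and -0.0043. The second Mrpl17 probe rose by 0.46. Of the 9 central protuberance genes, Mrpl40, Mrpl38 and Mrpl58 rose, 5 fell, with Mrpl52 lowest at -0.92, and Mrpl46 was not called (-0.19). Around the catalytic centre, Mrpl3 rose, Mrpl2 and Mrpl16 fell, and Mrpl4 was at -0.15 and not called. Near the decoding site and messenger RNA channel, Mrps5 rose, and Mrps11, Mrps12 (-0.54) and Mrps24 (-0.54) fell. These counts stand against 39.5% of all probes called higher and 34.5% called lower. Sites were assigned from general knowledge of the mitoribosome, and no site was tested against the rest.

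Mrps18a, Mrps18b and Mrps18c are paralogs of 1 bacterial small subunit protein, and Mrps18a sits in the large subunit. All 3 were lower, where 34.5% of all probes were. Mrps18a was at 4.38, 4.32 and 4.26 and at 3.68, 3.63 and 3.78, a fall of 0.63 (SE 0.07, adjusted p = 0.000392, limma). Mrps18b, the one with the most scattered control arrays, was at -0.24, -0.59 and -0.51 and at -1.30, -1.21 and -1.20, a fall of 0.79 (SE 0.11). Mrps18c was at 4.11, 4.04 and 3.90 and at 3.28, 3.20 and 3.26, a fall of 0.77 (SE 0.08). In each of the 3 the groups were apart, as for 78.9% of all probes. The calls stood after quantile normalization, where the differences were -0.25, -0.83 and -0.44.

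Among members with an enzymatic fold, Mrpl58, a peptidyl-tRNA hydrolase that frees stalled mitoribosomes, rose from 2.76, 2.79 and 2.88 to 3.27, 3.15 and 3.29, a difference of 0.43 (SE 0.07, adjusted p = 0.00207, limma). Mrpl44, a relative of RNase III, was at 3.23, 3.11 and 3.21 and at 3.15, 3.02 and 3.08. Its groups overlapped, and its difference of -0.10 (SE 0.07, adjusted p = 0.236) turned to 0.16 after quantile normalization, not called there either. The other 11 genes not called were Mrpl4, Mrpl15, Mrpl17, Mrpl19, Mrpl22, Mrpl45, Mrpl46, Mrpl47, Mrps17, Mrps26 and Mrps30, with differences from -0.19 to 0.27.

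Other genes of mitochondrial protein synthesis were described by the same counts, to be read against 39.5% of all probes higher and 34.5% lower. Of 5 mitoribosome proteins that carry other symbols, 4 were lower and none higher, with a median of -0.38. Dap3, a GTP-binding small subunit protein, fell by 0.67 (SE 0.08), Gadd45gip1 of the large subunit by 0.57 and Ptcd3 of the small subunit by 0.38. Of 10 mitochondrial translation factors, 3 were higher and 6 lower (median -0.26). Mtrfr, a release factor relative that rescues stalled mitoribosomes, fell by 1.57 (SE 0.09), in the other direction from Mrpl58. Oxa1l, which inserts newly made proteins into the inner membrane, fell by 0.62, and Mtrf1l, the main mitochondrial release factor, rose by 0.58. Mitochondrial aminoacyl-tRNA synthetases were split, with 4 of 14 higher, 5 lower and a median of 0.05. The largest differences among them were those of Tars2, Nars2 and Pars2, which charge threonine, asparagine and proline and fell by 1.33, 0.91 and 0.86.

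Assembly and ribosomal RNA modification genes had 5 of 22 higher and 9 lower (median -0.08), where 39.5% of all probes were higher and 34.5% lower. The same shares hold for the lists that follow. Mrm1 and Mrm2, which methylate the large ribosomal RNA, fell by 2.46 (SE 0.09, adjusted p = 1.28e-05, limma) and 1.64 (SE 0.09), and Mpv17l2, an inner membrane protein needed for mitoribosome assembly, fell by 1.58 (SE 0.06). All 3 were lower on every S3d array than on any control array, and 78.9% of all probes had no overlap between the groups. Genes of mitochondrial DNA expression had 8 of 19 higher and 9 lower (median -0.17). Mgme1, an exonuclease for mitochondrial DNA, rose by 1.91, Prorp, the nuclease of mitochondrial RNase P, rose by 1.18, and Slirp, which stabilizes mitochondrial messenger RNA, fell by 1.29. Tfam, which packages mitochondrial DNA and starts its transcription, rose by 0.40 (SE 0.06, adjusted p = 0.00138). Of 10 nuclear regulators, 2 were higher and 6 lower. Yy1, Myc and Esrra, transcription factors that act on nuclear genes for mitochondrial proteins, fell by 1.03, 1.02 and 1.01. Nrf1, Gabpa and Sp1 are named here, after their values were seen, because their motifs were searched. Nrf1 and Gabpa rose by 0.50 and 0.63, while Sp1 fell by 0.24.

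**Figure D5:**
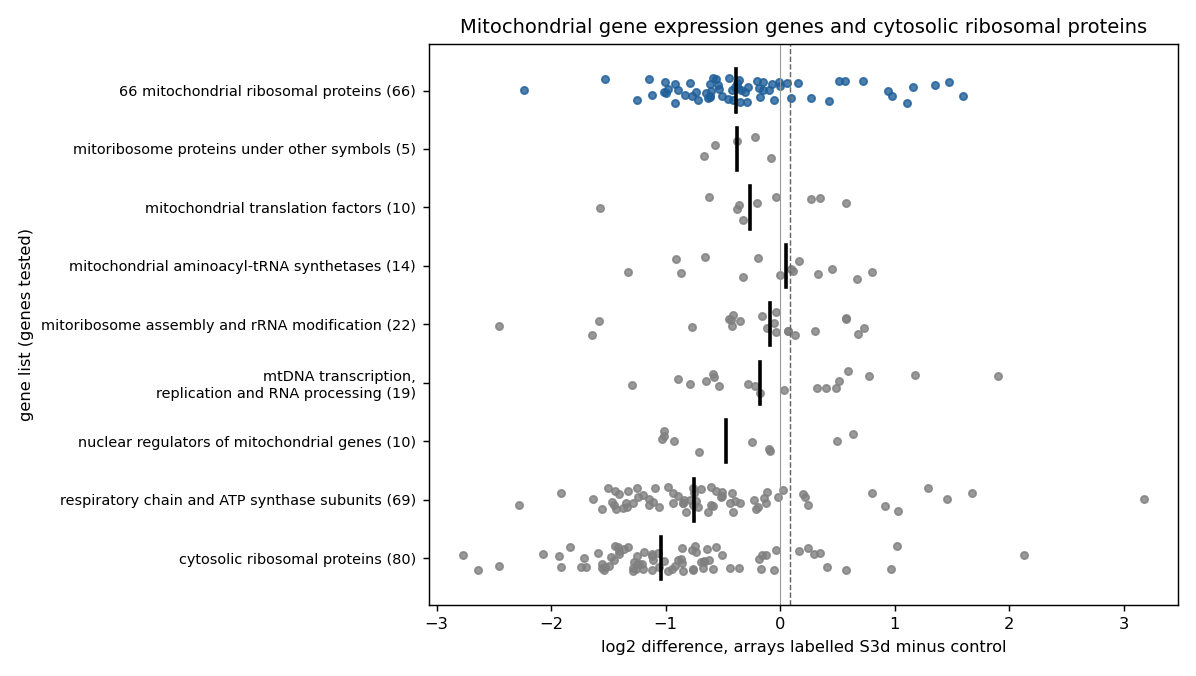
Log2 difference (x axis, arrays labelled S3d minus control) of each tested gene (points, spread vertically for legibility) of the mitoribosomal proteins and 8 related lists, with the number of genes tested in parentheses. Black bars are medians and the dashed line is the median of all tested probes (0.08). Medians run from -1.04 for cytosolic ribosomal proteins to 0.05 for the aminoacyl-tRNA synthetases, and after quantile normalization the cytosolic median is -0.01.

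The respiratory chain and ATP synthase subunits and the cytosolic ribosomal proteins had lower medians than the mitoribosomal genes. In the first, 10 of 69 genes were higher and 52 lower (median -0.75), and in the second 7 of 80 were higher and 66 lower (median -1.04), where 39.5% of all probes were higher and 34.5% lower. After quantile normalization the counts were 21 higher and 28 lower for the first list and 24 higher and 31 lower for the second. Over all probes 35.0% were then higher and 35.6% lower. The medians of the lists were -0.10 and -0.01, and that of the mitoribosomal genes was -0.05, below the cytosolic one. No difference between lists was tested.

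Markers of intestinal cell types moved as well, and their counts are to be read against 39.5% of all probes higher and 34.5% lower. Of 12 villus enterocyte markers, 8 were lower and 1 higher (median -0.76, and 0.04 after quantile normalization). Their mean log2 level lay between 6.64 and 6.87 on the control arrays and between 6.00 and 6.11 on the S3d arrays. Of 8 proliferating crypt cell markers, 5 were higher and 3 lower, with a mean level from 1.40 to 1.45 and from 1.71 to 1.78. Goblet cell markers had 2 of 3 lower, Paneth cell markers 2 of 3, leukocyte markers 6 of 7, and 1 leukocyte marker was higher. With quantile normalization the goblet median turned from -0.67 to 0.07, while the crypt, Paneth and leukocyte medians were 0.51, -1.13 and -0.38. Smooth muscle markers had 2 of 6 higher and 2 lower, and neuron and glia markers 2 of 4 higher. Defa5, Chat and S100b were not well above background on all 3 arrays of either group. The part of these cell types in the mitoribosomal differences was not tested.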

How the data were processed

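Jejunal RNA was measured on 6 one-colour arrays, 3 per labelled group. The authors deposited scanner output (Agilent Feature Extraction, version 10.7 in the submitters' processing notes), whose intensity values were background-corrected but not normalized between arrays, together with spot flags, and a table of log2 values whose sorted columns differ by at most 0.0025, as after quantile normalization. The program behind this table is not given in the sources used here. Control and outlier spots were left out, repeated spots averaged, and log2 processed signals reduced by the array's 75th percentile. A probe was tested if every array of either group put it well above background (31367 of 41012), and the test was limma 3.58.1 in R 4.3.3 (lmFit, eBayes), with Benjamini-Hochberg adjustment. On simulated data with 31137 probes, 70.5% of 200 probes changed by a log2 value of 1 were recovered, with 4 false calls. Only these 200 were changed there, whereas 74.0% of the probes tested were called here. The simulated rates need not hold for the real data. The number of arrays limits the precision.

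Genes were named through RefSeq accessions (assembly GRCr8, for names and promoters only; 17512 of 20904 probes with an accession matched). The members and lists were chosen with earlier results of these data known. Named are the 10 largest rises and falls called without overlap, the Mrps18 paralogs, Mrpl12, Mrpl44 and Mrpl58, the 3 largest differences of each short list, Dap3 and Tfam, and members by site. Marker lists covered 7 cell types. Alternatives were quantile, median and no scaling, normexp (offset 50), both other filters, outlier spots kept, the deposited table, array weights, an intensity trend, a replicate block, a per-probe analysis of variance as in the methods, the mean over probes, other thresholds and each array left out. Normexp used the median signal, and its repeat with local backgrounds over 200 replaced was added after the data were seen.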

Additional observations from a re-analysis of the deposited data

How the results depend on the processing

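All differences here are log2 values, arrays labelled S3d minus control, from limma. With 75th percentile scaling 12 genes were called higher and 42 lower, with a median of -0.38. Of these calls 52 of 54 stood whichever array was left out. Those of Mrpl18 and Mrpl20, near the threshold, did not. Leaving out an array gave 12 higher without S3d array 1 and 11 otherwise, 41 lower each time and medians from -0.41 to -0.34. The replicate block gave 11 higher, 41 lower and a median of -0.38, and changed no call among the 25 named genes. Replicate numbers did not pair the arrays (correlation of deviations from the group means 0.02, 0.02 and -0.05).

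Quantile normalization called 27 genes lower, with a median of -0.051, median centring moved the median to -0.59, and normexp with high local backgrounds replaced moved it to -0.26. As planned, normexp called 4 higher and 0 lower, against 543 and 1209 of all 31367 probes, with a median of 0.11, and 20 of the 25 named genes lost their call. Control array 3 held 8 spots with a local background over 200, up to 54705, and the median SD between control arrays was then 0.77, against 0.11 without normexp and 0.07 after replacing these 8. A fold of at least 1.5 left 24 lower, with an adjusted p under 0.05 as with an unadjusted p under 0.01. Without scaling 65 were higher and 1 lower, with a median of 1.46. These named falls turned to rises there: Mrps34 0.31, Mrps14 0.60, Mrps11 0.70, Mrpl2 0.72, Mrpl54 0.84, Mrpl37 0.84 and Mrpl1 0.85. So did Mrpl12 0.87, Mrpl30 0.93, Mrps18a 1.22, Mrps18b 1.05 and Mrps18c 1.08. Mrpl44, whose difference of -0.10 had not been called, turned to 1.75 without scaling. Mrpl44 also turned to 0.16 with quantile normalization, 0.48 with normexp and 0.10 with the added normexp.

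By its own labels the deposited table gave 27 higher and 16 lower, against 11078 and 10897 of all 31367 probes, with a median of 0.048, and the opposite sign for 47 of the 54 called genes. Its differences were -1.66 for Mrpl3, -1.58 for Mrpl40, -1.32 for Mrpl38, -1.21 for Mrps5, -1.19 for Mrpl21, -1.03 for Mrps22, -1.18 for Mrps23, -0.82 for Mrpl50, -0.75 for Mrps9, -0.71 for Mrps15, -0.68 for Mrpl58, 2.13 for Mrpl35, 1.00 for Mrps34, 0.89 for Mrps14, 1.04 for Mrps11, 1.12 for Mrpl2, 0.52 for Mrpl54, 0.48 for Mrpl37, 0.76 for Mrpl1, 0.30 for Mrpl12, 0.50 for Mrpl30, 0.25 for Mrps18a, 0.83 for Mrps18b and 0.44 for Mrps18c. The exchanged labels of table and scanner files set this sign. Under the other settings run the counts stayed within 1.5 times, and among the named genes only Mrps14 lost its call, with the mean over its probes, and only Mrpl44 gained one, with median centring (-0.30).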

Other observations

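A few mitoribosomal genes that differed little with the 75th percentile were higher on the S3d arrays after quantile normalization. They were picked after their values were seen. Mrpl20, a large subunit protein, had a difference of 0.16 (adjusted p = 0.0486, limma) with the 75th percentile and 0.60 (adjusted p = 0.000271) after quantile normalization. Mrpl15, Mrpl17, Mrps17 and Mrps30 were not called with the 75th percentile and had quantile differences of 0.37, 0.37, 0.34 and 0.36, all called. In the deposited table, by its own labels, the same 4 genes were at -0.38, -0.37, -0.34 and -0.36.

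Among genes of mitochondrial protein synthesis outside the mitoribosome, the rises of 3 genes were likewise picked after the values were seen. Wars2 and Fars2, which charge the mitochondrial tRNAs for tryptophan and phenylalanine, rose by 0.80 (SE 0.07) and 0.67 (SE 0.07), opposite to Tars2, Nars2 and Pars2. Grsf1, an RNA-binding protein of mitochondrial RNA granules, rose by 0.73 (SE 0.07), opposite to Mrm1 and Mrm2.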
